A study of Caenorhabditis elegans with 2 samples.

Results

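Candidate binding sites of the tagged zinc finger protein SPR-3 were examined at 9 genes of the Notch pathway of Caenorhabditis elegans, out of 19973 protein-coding genes on the 6 nuclear chromosomes. They were chosen by name and comprise the receptor genes lin-12 and glp-1, the ligand genes lag-2 and apx-1, the protease genes sup-17 and adm-4, the genes lag-1 and sel-8 of the nuclear complex, and sel-10, a gene of receptor turnover. For each gene every summit in the gene body and 5 kb either side was taken, which gave windows of 11.77 to 25.25 kb and 164.32 kb in all.

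Chromatin immunoprecipitation and sequencing (ChIP-seq) had been done on whole L4 larvae of strain OP703, of mixed sex and 49 hours old, from cultures that had been bleached and synchronised by starvation at the L1 stage. The worms carried unc-119(tm4063) and the transgene wgIs703, in which spr-3 is fused to TY1, EGFP and 3xFLAG and which also holds unc-119(+). The immunoprecipitation used an anti-GFP antibody, and 2 biological replicates of this 1 group were made, with no second condition. The labels describe the insertion as aimed at spr-3 and do not say whether the worms' own copy of the gene was intact. The sources used here do not say which cells express the tagged protein.

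Notch receptors are cell-surface proteins that are activated by DSL ligands on neighbouring cells. Ligand binding lets an ADAM protease cut the receptor outside the membrane and presenilin, in gamma-secretase, cut it within the membrane, and the freed intracellular domain joins the DNA-binding protein LAG-1 and the coactivator SEL-8 in the nucleus. In L4 hermaphrodites the pathway is known for germline proliferation through glp-1 and for cell fates of the gonad and vulva through lin-12. The spr-3 gene is known as a genetic suppressor of sel-12, a presenilin gene, which is the reason for examining Notch pathway genes here.

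The authors deposited 30000 candidate intervals for each replicate and for the pool of both, and a smaller set of peaks that passed an irreproducible discovery rate (IDR) threshold. The thresholded peaks are the candidates of highest pooled signal, a value for ChIP against control, down to a signal of 138.0, and the first candidate left out had rank 946. Pooled candidates ran from 43.4 to 2033 with a median of 59.9, and the authors name these lists as peaks together with background for IDR. The sources used here do not say how signals were scaled and read depth is unknown, so ranks within a list are set side by side and signals of different lists are not compared as levels. In whole worms, binding in a few cells and weak binding in many cannot be told apart.

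A thresholded peak lay near 1 of the Notch pathway genes and at none of their promoters. With 9 genes, neither share can be told apart from that of all genes. Of the 9 genes, 1 (11.1%, exact 95% binomial interval 0.281 to 48.2%) had a thresholded summit within its window, against 12.1% of all protein-coding genes. It was adm-4. None had one in the promoter window, taken as the 1000 bp before and the 200 bp after the annotated 5′ end, where 2.83% of all genes had one. The exact interval for 0 of 9 genes reaches 33.6%, so a share like that of other genes is within it. Intervals cover counting error among genes only.

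Around the threshold the picture was fuller. Pooled candidates were present in the windows of 9 of 9 members, against 88.7% of all genes. The windows held 61 of them, 5 among the 1500 of highest pooled signal, a limit chosen after the values were seen. These 5 lay at adm-4 (rank 724), lin-12 (rank 1075), sel-10 (rank 1085), glp-1 (rank 1165) and lag-1 (rank 1406). A candidate of that rank was present in the windows of 5 of 9 members and of 17.1% of all protein-coding genes. Member windows are longer than usual, with 8 of 9 above the median of 12.03 kb, and a longer window holds more candidates. Of the 5 sites, 1 lay in its gene's promoter, 1 in an intron of its gene and the other 3 beyond the 3′ end, in or beside other genes. Those of adm-4 and glp-1 were within 200 bp of a tRNA gene, as were 15.0% of the 1500 highest pooled summits.

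**Figure D1:**
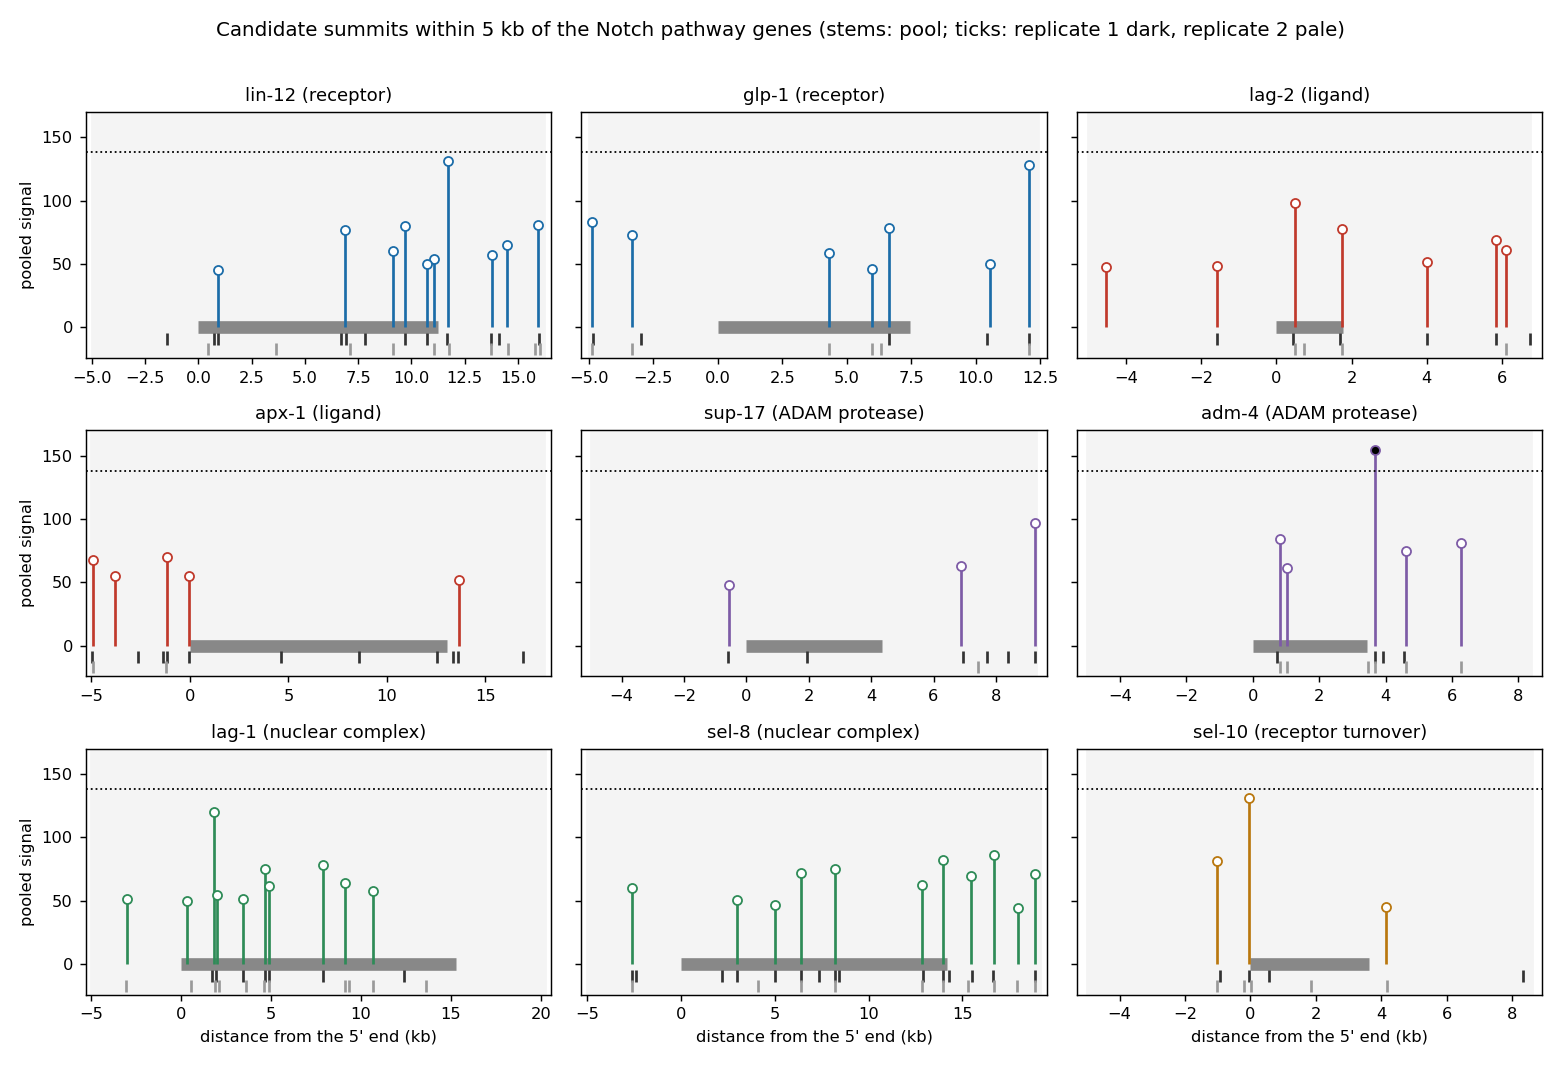
Pooled candidates around each Notch pathway gene. The horizontal axis is the distance from the annotated 5′ end in kb (positive in the direction of transcription), the stems give the pooled signal, the grey bar is the gene body, the shading is the window, and ticks mark summits of replicate 1 (dark) and replicate 2 (pale). The dotted line is the lowest thresholded signal (138.0), which the filled point at adm-4 (154.1) exceeds, while the highest stems of lin-12, sel-10, glp-1 and lag-1 (131.4 to 120.4) end below it.

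The receptor genes had no candidate at their promoters and their strongest sites lay in neighbouring genes. LIN-12 and GLP-1 are the only Notch receptors of the worm and lie near each other on chromosome III. The promoter window of each was empty in both replicates and in the pool, as were those of 6 of the 9 members and 53.5% of all protein-coding genes.

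The lin-12 gene (WBGene00003001, chrIII:9060221-9071472, minus strand, ce11) had 10 pooled candidates, 12 in replicate 1 and 10 in replicate 2. Its highest (chrIII:9059520-9059949) had a pooled signal of 131.4 and a −log10 q-value of 1.49. The overlapping candidates had signals of 66.1 in replicate 1 (rank 1390) and 66.0 in replicate 2 (rank 1475), so both libraries placed it at similar ranks. The summit stood 486 bp past the 3′ end of lin-12, in a coding exon of gst-1, a glutathione S-transferase gene, and 404 bp downstream of the 5′ end of that gene. Within lin-12 itself there were 4 candidates in coding exons and 2 in introns, with pooled signals from 45.4 to 79.8. Only the weakest of these, 932 bp downstream of the 5′ end, was closer to the 5′ end of lin-12 than to that of gst-1. It had a candidate in replicate 1 (signal 32.2) and none in replicate 2.

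The glp-1 gene (WBGene00001609, chrIII:9092241-9099698, plus strand) had 7 pooled candidates, 5 in replicate 1 and 6 in replicate 2. The 3 within the gene all lay in coding exons, 4319, 5977 and 6642 bp downstream of the 5′ end, with pooled signals of 58.4, 46.3 and 78.4. The 2 upstream lay in the overlapping genes mrpl-44 and mccc-2, which encode mitochondrial proteins (signals 83.2 and 73.1). The highest (chrIII:9104098-9104527) was 4615 bp past the 3′ end, with a pooled signal of 128.3, 71.8 in replicate 1 (rank 1049) and 49.3 in replicate 2 (rank 4303). It lay in an intron of dos-1, 370 bp downstream of the 5′ end of that gene, which belongs to the family of secreted or membrane-bound Notch co-ligands with a DOS motif. The summit was also within 200 bp of ZK507.t1, a tRNA-Asn gene (chrIII:9104207-9104279, minus strand, names from RefSeq). The sequence around this summit is shown because it joins a Notch co-ligand gene and a tRNA gene. It is the plus strand of chrIII:9104213-9104413 from RefSeq WBcel235, the assembly of ce11, with the part of the tRNA gene in capitals:
glp-1 window, dos-1 intron: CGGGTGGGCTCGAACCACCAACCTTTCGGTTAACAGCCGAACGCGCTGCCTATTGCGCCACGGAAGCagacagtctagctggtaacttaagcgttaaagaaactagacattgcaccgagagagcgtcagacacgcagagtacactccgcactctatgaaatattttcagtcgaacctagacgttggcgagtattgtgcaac

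The ligand genes had weak candidates, and the highest summit of each had a copy of the same repeated sequence within 100 bp. LAG-2 is a DSL ligand of both receptors and APX-1 is another, known from early embryonic cell signalling. The lag-2 gene (WBGene00002246, chrV:3188343-3190115, plus strand) is the shortest member and had the densest pooled candidates, 7 in 11.77 kb or 0.595 per kb. The highest (chrV:3188629-3189058) had a pooled signal of 98.1 (rank 2840), 59.2 in replicate 1 (rank 2074) and 39.1 in replicate 2 (rank 9548), so it stood higher in replicate 1 than in replicate 2. Its summit lay in a coding exon, 501 bp downstream of the 5′ end. The next (signal 77.6) lay at the 3′ UTR of lag-2, with 39.4 in replicate 1 and 40.8 in replicate 2. The remaining 5, with pooled signals of 47.6 to 68.7, were outside the gene, and 1 of them was matched in neither replicate.

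The apx-1 gene (WBGene00000168, chrV:3210196-3223221, plus strand) had 5 pooled candidates in 23.03 kb, and none inside the gene body. Replicate 1 had 11 candidates in this window and replicate 2 had 2, so that the numbers in the replicates differed by the largest ratio here and at sup-17. The highest pooled candidate (chrV:3208805-3209234, signal 70.0, rank 9548) was 1176 bp upstream of the 5′ end, with 29.3 in replicate 1 (rank 21188) and 35.4 in replicate 2 (rank 12935). A candidate 28 bp upstream of the 5′ end, in the promoter window, had a pooled signal of 54.7 (rank 18933), 35.1 in replicate 1 and no match in replicate 2. Of all protein-coding genes, 60.0% had a stronger or equal candidate within their windows, which put apx-1 lowest among the members.

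The highest lag-2 and apx-1 summits, taken with 100 bp either side, shared a run of 22 identical bases, which was noticed when the sequences were set side by side. They are shown to make that run visible, as the plus strand of chrV:3188744-3188944 and chrV:3208920-3209120 with the run in capitals:
lag-2 gene: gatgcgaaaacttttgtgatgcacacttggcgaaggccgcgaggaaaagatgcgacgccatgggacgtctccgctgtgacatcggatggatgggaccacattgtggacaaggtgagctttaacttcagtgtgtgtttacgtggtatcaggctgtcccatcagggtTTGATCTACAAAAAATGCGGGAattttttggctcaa
apx-1 upstream: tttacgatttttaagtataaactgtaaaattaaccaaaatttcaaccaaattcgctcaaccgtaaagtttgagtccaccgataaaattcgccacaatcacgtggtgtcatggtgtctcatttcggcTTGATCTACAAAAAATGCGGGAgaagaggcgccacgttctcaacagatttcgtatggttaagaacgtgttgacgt

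The run occurs 1072 times in the nuclear genome, on either strand. It was present in 82 of the 30000 pooled summit windows (0.273%) and in 0 of the thresholded ones, and the other 7 members' highest windows lacked it. Soft-masked (repeat) bases of the RefSeq genome made up 28.9% of the lag-2 window and 60.2% of the apx-1 window, against a median of 17.9% over all pooled windows. The sources used here do not say how reads with several matches were treated, and the part of the repeat in these candidates was not tested.

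The protease genes held the only thresholded peak, and it lay on a tRNA gene. SUP-17 is the worm counterpart of ADAM10 and ADM-4 that of ADAM17, and both act in cutting the receptor outside the membrane. The adm-4 gene (WBGene00000075, chrX:7794875-7798298, minus strand) had 5 pooled candidates. The thresholded peak (chrX:7794411-7794840) had a pooled signal of 154.1 and a −log10 q-value of 2.21. The overlapping candidate of replicate 1 had a signal of 58.2 (rank 2215) and that of replicate 2 had 94.9 (rank 511), so the site was above rank 946 in replicate 2 and below it in replicate 1. The summits of the replicates stood 4 and 1 bp from that of the pool. The peak lay 249 bp past the 3′ end of adm-4, where the nearest protein-coding 5′ end is that of ZK154.6, with its summit inside ZK154.t3, a tRNA-Gly gene (chrX:7794603-7794674, plus strand). Of all thresholded summits 18.4% lay within 200 bp of a tRNA gene, and 1.58% of all pooled summits. Without such peaks none of the 9 members had a thresholded summit within 5 kb, against 10.2% of all genes. The sequence is given because the only peak of the pathway genes stands on it, as the plus strand of chrX:7794526-7794726 with the tRNA gene in capitals:
adm-4, 3′ side: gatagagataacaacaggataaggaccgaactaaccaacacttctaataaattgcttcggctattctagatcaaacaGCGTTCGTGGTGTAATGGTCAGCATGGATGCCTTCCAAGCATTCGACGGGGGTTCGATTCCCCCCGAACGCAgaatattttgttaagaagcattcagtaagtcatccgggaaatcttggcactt

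The other adm-4 candidates lay within the gene 810 and 1030 bp downstream of the 5′ end (pooled signals 84.4 and 61.0), and past its 3′ end (74.9 and 80.9). One of the latter was 123 bp upstream of ZK154.6, in that gene's promoter window, and ranked 21654 in replicate 1 and 4055 in replicate 2. All 5 had a match in replicate 2, and 4 in replicate 1.

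The sup-17 gene (WBGene00006324, chrI:8792964-8797295, plus strand) had 3 pooled candidates, none of them inside the gene. A candidate in its promoter window, 573 bp upstream, had a pooled signal of 47.7 (rank 25286), near the end of the list, with 41.0 in replicate 1 (rank 8399) and no match in replicate 2. The highest had a pooled signal of 97.1 (rank 2959) and similar ranks in the replicates, 3750 (signal 51.0) and 3883 (signal 50.7), and lay 4911 bp past the 3′ end, in a coding exon of F36A2.2. The replicate 2 summit of this site stood 127 bp away and just outside the window, so that inside the window replicate 2 had only 1 candidate, of rank 28566.

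Of the genes of the nuclear complex, lag-1 had a candidate among the strongest of replicate 1 within its own intron, and sel-8 had only weak ones. LAG-1 is the CSL protein that carries the pathway to DNA and recognises the core TGGGAA, and SEL-8 acts as the Mastermind-like coactivator. The lag-1 gene (WBGene00002245, chrIV:6095407-6110655, plus strand) had 10 pooled candidates, 7 in replicate 1 and 11 in replicate 2, and 9 of the 10 pooled summits lay inside the gene. The highest (chrIV:6097010-6097439) was in an intron, 1818 bp downstream of the 5′ end. Its pooled signal was 120.4 (−log10 q-value 1.16), with 80.3 in replicate 1 (rank 760) and 57.1 in replicate 2 (rank 2496). The site was thus above rank 946 in replicate 1 and below it in replicate 2 and in the pool. A weaker summit 2020 bp downstream of the 5′ end had a pooled signal of 54.7. The other candidates in the gene had pooled signals of 49.8 to 78.3, and 1 stood 23 bp downstream of the 5′ end of K08B4.7 (51.2), upstream of lag-1.

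The CSL word was frequent in the lag-1 window as a whole, which takes in introns, exons and flanks. The 7-letter form GTGGGAA, searched on both strands, occurred 15 times in the 25.25 kb lag-1 window, or 0.594 per kb, against 0.133 per kb of the nuclear genome, and ATGGGAA occurred 10 times (0.396 and 0.201 per kb). GTGGGAA stood 50 and 35 bp before the highest summit and 268 and 285 bp after it, all on the minus strand and in the intron. These full forms were chosen after matches to the 6-letter core had been seen. The sequence is given to show the pair beside the summit, as the plus strand of chrIV:6097125-6097325 with TTCCCA, the reverse complement of the core, in capitals:
lag-1 intron: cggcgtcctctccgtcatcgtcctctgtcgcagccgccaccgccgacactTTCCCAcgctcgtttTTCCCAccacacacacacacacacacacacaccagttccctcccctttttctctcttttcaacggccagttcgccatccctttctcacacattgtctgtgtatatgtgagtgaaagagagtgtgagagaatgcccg

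The sel-8 gene (WBGene00004765, chrIII:3612951-3627142, minus strand) had 11 pooled candidates, 15 in replicate 1 and 10 in replicate 2, the largest numbers of any member in replicate 1 and in the pool. None exceeded a pooled signal of 86.2 (rank 4592). That site lay 2467 bp past the 3′ end, in an intron of ptp-1, a protein tyrosine phosphatase gene, with 52.1 in replicate 1 (rank 3460) and 33.7 in replicate 2 (rank 14767). Next in signal was a summit in the 3′ UTR of sel-8 (82.0), which ranked 19002 in replicate 1 and 4081 in replicate 2. The order of these 2 sites was therefore opposite in the replicates. Within the gene the others had pooled signals of 47.1 to 74.9, with 4 sites in introns and 1 in a coding exon. Upstream, the single candidate (60.3) lay 2594 bp away, in mrps-31, a gene for a mitochondrial ribosomal protein.

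The turnover gene sel-10 had the strongest promoter site of the pathway genes, just below the threshold. SEL-10 is an F-box protein of the Fbw7 family that directs receptor intracellular domains to degradation by an SCF ubiquitin ligase. The gene (WBGene00004767, chrV:13819361-13822980, plus strand) had 3 pooled candidates. The highest (chrV:13819101-13819530) had its summit 45 bp upstream of the annotated 5′ end, with a pooled signal of 130.9 (rank 1085) and a −log10 q-value of 1.47. Replicate 1 had a summit 32 bp upstream of the 5′ end with a signal of 70.5 (rank 1113). Replicate 2 had summits on either side of the 5′ end, 192 bp upstream (58.2, rank 2324) and 8 bp downstream (52.9, rank 3326), where replicate 1 and the pool each had 1. Both libraries thus had candidates at the 5′ end, in the upper ranks, and neither had one above rank 946. A second site had its pooled summit 1013 bp upstream, just outside the promoter window, with a pooled signal of 81.4 and 47.7 in replicate 2. Its candidate in replicate 1 (30.4, rank 19590) had the summit 918 bp upstream, inside the promoter window. The last pooled candidate (45.5) lay in a coding exon of hpo-31.

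Candidates of any rank were present in the promoter windows of 3 of 9 members (33.3%, exact interval 7.49 to 70.1%) in the pool, namely sel-10, apx-1 and sup-17, against 32.7% of all genes. In replicate 1 the same 3 genes had one, against 31.9% of all genes, and in replicate 2 it was sel-10 alone, 1 of 9, against 33.2%. Only that of sel-10 had a candidate in both replicates and the pool, as did 19.2% of all genes. Its sequence is shown because it is the only such site, as the plus strand of chrV:13819216-13819360, cut before the annotated gene, with TTCCCA in capitals:
sel-10 upstream: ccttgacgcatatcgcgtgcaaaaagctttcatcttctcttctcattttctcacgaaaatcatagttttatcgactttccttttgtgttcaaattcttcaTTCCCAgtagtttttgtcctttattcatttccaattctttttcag

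The word TTCCCA began at the summit base, but neither 7-letter form matched there. The stretch ended in ttttcag, letters typical of worm splice acceptors, directly before the annotated 5′ end. Many worm transcripts are trans-spliced, and whether the annotated end is a start of transcription was not tested.

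**Figure D2:**
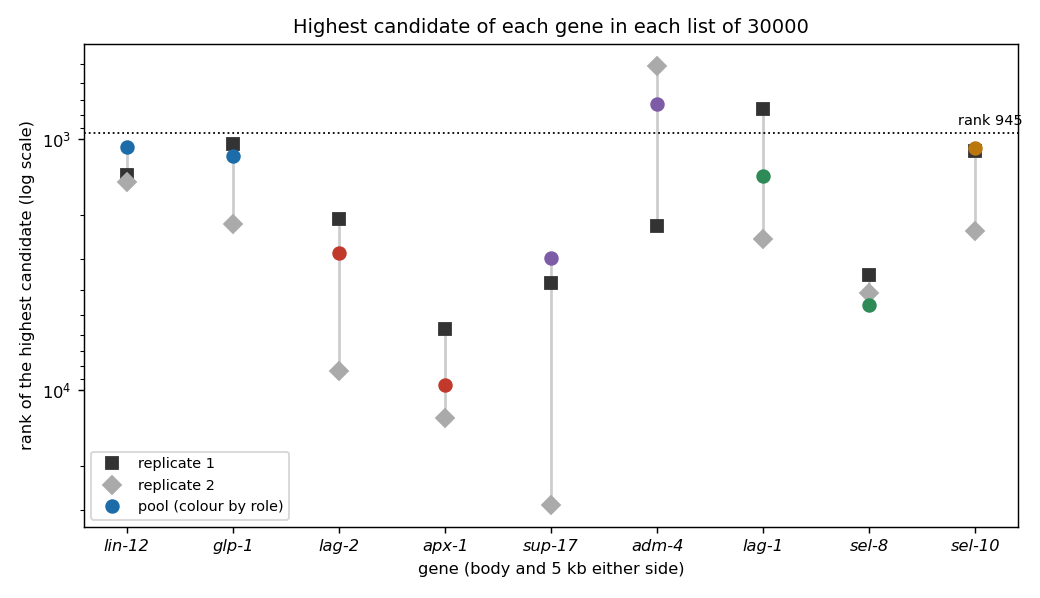
Rank of the highest candidate within each gene's window in replicate 1, replicate 2 and the pool (log axis, strongest at the top), with the number of thresholded peaks as a dotted line. Points of 1 gene need not be the same site. Above the line are adm-4 in replicate 2 and the pool and lag-1 in replicate 1, while the points of sup-17 run from 2959 in the pool to 28566 in replicate 2.

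The strongest site around these genes was not the same in the replicates, and many sites were in 1 replicate only. The windows held 70 candidates in replicate 1 and 55 in replicate 2. Of the 61 pooled candidates, 37 (60.7%) were overlapped by at least 1 bp by a candidate in both replicates, against 56.7% of all pooled candidates, 12 in replicate 1 only, 10 in replicate 2 only and 2 in neither. Some close pooled summits shared a replicate candidate, so the 37 rested on 35 distinct pairs. The pooled list was made from both replicates, so these shares are no independent measure of their overlap. Over these pairs Spearman's rho of the signals was 0.23 (n = 35 pairs, with the same control in both libraries and a choice by pooled signal). Without the 5 sites among the 1500 highest of the pool it was -0.13 (n = 30 pairs). A cut on pooled signal removes sites that are high in both replicates and can by itself lower rho. What the value of 0.23 rested on was therefore not tested. The highest site overall was adm-4 in replicate 2 and lag-1 in replicate 1. No other member had a site above rank 946 in either replicate.

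**Figure D3:**
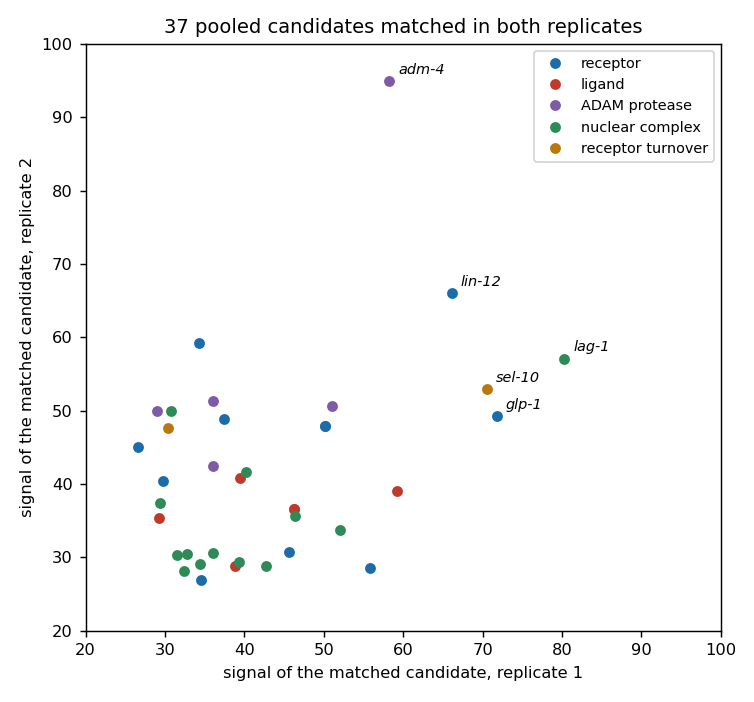
Signal of the candidates that overlap the same pooled candidate, replicate 1 on the horizontal and replicate 2 on the vertical axis (each in its authors' signal units), for 37 pooled candidates in the member windows, coloured by the role of the gene. The labelled points are the 5 sites among the 1500 highest of the pool, with adm-4 at 58.2 and 94.9 and lag-1 at 80.3 and 57.1.

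The density of candidates varied among these genes. In all there were 70 in replicate 1 (0.426 per kb), 55 in replicate 2 (0.335 per kb) and 61 in the pool (0.371 per kb), against 0.299 per kb of the genome in each list and 0.312 to 0.316 per kb of the windows of all protein-coding genes. Of the 9 members, 5 were denser than the genome in replicate 1, 7 in replicate 2 and 6 in the pool. The share of all protein-coding genes with such windows was not counted, so these counts have no background. The density over all 9 windows in replicate 2 was close to that around all protein-coding genes. The density of thresholded summits was 0.00609 per kb in the member windows and 0.0109 per kb in those of all genes. Of the pooled summits 20 were past the 3′ end of the member, 14 in its introns, 13 upstream, 11 in coding exons, 2 in a 3′ UTR and 1 in a 5′ UTR. The member had the nearest protein-coding 5′ end for 30 of the 61.

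**Figure D4:**
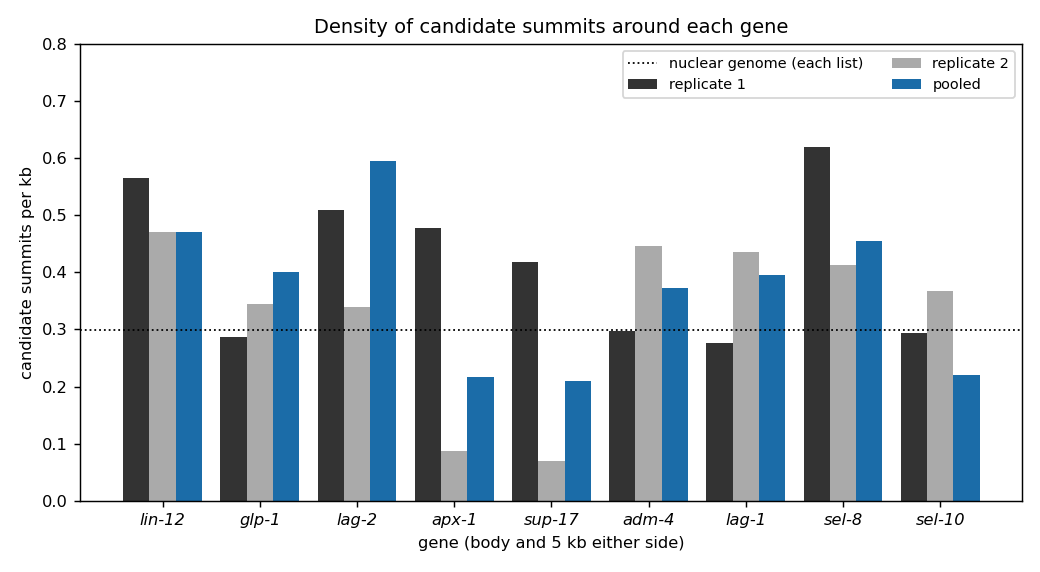
Candidate summits per kb in the window of each gene, in replicate 1, replicate 2 and the pool, with the density over the nuclear genome as a dotted line (0.299 per kb in each list). The pool runs from 0.209 per kb at sup-17 to 0.595 per kb at lag-2, and apx-1 and sup-17 are above the line in replicate 1 and below it in replicate 2 (0.0869 and 0.0698 per kb).

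Sequence words were counted at the member candidates and at all candidates. GAGACGCA, searched on both strands within 100 bp of each summit, was present at 9.52% of the thresholded summits and 2.52% of all pooled ones, and at 1 of the 61 member candidates (1.64%), a weak site in an intron of sel-8 (signal 50.6). GCGCCAGC was present at 4.44% of the thresholded and 0.547% of the pooled summits and at 0 of 61 member candidates. For both words the member counts were near what the share of all pooled summits gives in 61 sites. GAGACGCA was also in the promoter window of 1 of 9 members (11.1%), against 8.06% of all protein-coding genes. Both words came from earlier results on these peaks. The CSL core TGGGAA was present at 14 of 61 member candidates, against 12.3% of all pooled and 11.1% of thresholded summits. Of these 14, 5 lay in the lag-1 window. The core was in the promoter windows of 4 of 9 members (44.4%), against 53.5% of all protein-coding genes. A match is a description of the letters and not a binding site.

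The other genes of the pathway were examined as lists. Of 43 of them found in the annotation, 6 (14.0%, exact interval 5.3 to 27.9%) had a thresholded summit within 5 kb, against 12.1% of all genes. In the promoter window 0 had a thresholded summit, against 2.83% of all genes, and 13 (30.2%) had a pooled candidate, against 32.7%. The exact interval takes genes as independent, while genes of the list that lie close together can share candidates.

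The products of the presenilin and gamma-secretase genes sel-12, hop-1, aph-1, aph-2 and pen-2 cut the receptor within the membrane. None of these genes had a thresholded summit within 5 kb, against 12.1% of all genes. None had a pooled candidate in a promoter window, against 32.7%. Each count is 0 of 5, which allows up to 52.2%, so the shares of all genes are within that range. The highest pooled signals of these genes within 5 kb were 105.0 at sel-12, 77.6 at pen-2, 58.8 at hop-1 and 46.2 at aph-1, and aph-2 had no candidate.

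Among 13 other DSL ligand and co-ligand genes only 1 (7.69%) had a thresholded summit within 5 kb, against 12.1% of all genes. This was dos-3, with the interval chrIII:835797-836173. It held 2 summits in a coding exon of dos-3, 3658 and 3455 bp downstream of the 5′ end, with pooled signals of 321.3 and 180.6. The candidates nearest to the stronger summit ranked 225 in replicate 1 and 62 in replicate 2, above rank 946 in both libraries. No site in the windows of the 9 genes was above that rank in both. For the weaker dos-3 summit the ranks were 1475 and 500.

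Of 15 reported target genes of the receptors, 4 (26.7%) had a thresholded summit within 5 kb, against 12.1% of all protein-coding genes. Their summits were all outside promoter windows, and no exact interval was calculated for this short list. The interval near hlh-27, one of the bHLH genes of the ref-1 family, held 2 summits (728.6 and 231.1) 3488 and 3689 bp upstream. It lay closer to the 5′ end of ins-13 and within 200 bp of the spliced-leader gene sls-2.2. The peak past hlh-29, another gene of that family (264.9), ranked 103 in replicate 1 and 622 in replicate 2. That past dpy-23, an adaptor complex gene (208.1), ranked 316 and 451. The peak past lst-1, a germline stem cell gene (197.5), was in an intron of set-18 and within 200 bp of a tRNA gene. Of 10 modifier genes and SCF partners, 1 had a thresholded summit, sel-11, and that peak (252.0) stood in the promoter windows of syx-5 and F55A11.1, 2796 bp upstream of sel-11.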

How the data were processed

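Per the labels and the notes deposited beside the files, the candidate lists of replicate 1, replicate 2 and the pool were made on ce11 with the same control file, and the thresholded set from all 3. The aligner, the peak caller with its version and the cutoff of the IDR step were not given in the sources used here. The authors deposited a signal and a −log10 q-value for each interval, in narrowPeak format, with the summit as an offset. Every thresholded interval was found in the pooled list, and together they were its highest. Read counts are not used here, so depth is unknown. The deposited signal served to describe and rank intervals within a list.

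Genes came from Ensembl release 115 (WBcel235) and sequences from the RefSeq genome of that assembly; all intervals lay within its chromosomes. A replicate value of a pooled candidate is that of the overlapping candidate (1 bp) with the nearest summit. Members, lists and words were chosen with earlier results of these data known. Counts were set beside the same share over all 19973 protein-coding genes, with no test, since there is 1 group. Named were the 9 members, with in full their thresholded, promoter and highest sites, and other pathway genes with a thresholded summit within 5 kb. Of 53 listed genes, 1 did not match the annotation. Counting was tested on simulated summits (Python 3.11.15, numpy 2.4.6, pandas 2.3.3, scipy 1.17.1).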

Additional observations from a re-analysis of the deposited data

How the results depend on the processing

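No paired analysis was possible because both replicates belong to 1 group. The count of members with a thresholded peak within 5 kb was 1. It was 4 with 10 kb either side (18.7% of all genes), 0 in the gene body alone (1.7%), 0 under a stricter limit on signal (6.72%) and 0 without summits near tRNA genes (10.2%), an alternative added after seeing the data. The count in promoter windows was 0 under each alternative run. The count with a pooled candidate in the promoter window was 3. It was 5 in a wider promoter window that reached 500 bp downstream (51.2% of all genes) and 1, sel-10, among the 5000 highest candidates (8.38%). The 61 pooled candidates became 40 with 2 kb either side and 9 among the 5000 highest, as narrower windows and shorter lists hold fewer sites. With 1 replicate at a time these 4 counts ran from 1 to 1, 0 to 0, 1 to 3 and 55 to 70. The single member with a strong site was lag-1 without replicate 2 and adm-4 without replicate 1. The unknown depth and the 2 replicates limit all values.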

Other observations

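Thresholded peaks stood between 5 and 10 kb from the gene bodies of 3 members. With 10 kb either side, 4 members had a thresholded peak, against 18.7% of all genes. The share of all genes with a peak between 5 and 10 kb away was not counted, so the 3 members have no background. Past the 3′ end of lin-12 there were 2 such peaks. The stronger (chrIII:9053996-9054138) had a pooled signal of 338.2 (rank 103), 162.0 in replicate 1 (rank 123) and 175.7 in replicate 2 (rank 97). It lay 6170 bp past lin-12, in the promoter windows of cls-2, which encodes a CLASP microtubule-binding protein, and R107.5. The other (140.8) lay 8921 bp past lin-12, in the promoter window of ikke-1. A peak 5999 bp upstream of sup-17 (228.0, rank 271) had signals of 108.5 in replicate 1 and 127.8 in replicate 2, outside any promoter window and with mfb-1 as the nearest 5′ end. A peak 7250 bp past lag-1 (158.3, rank 672) lay in the promoter window of zen-4, a kinesin gene, within 200 bp of a snoRNA gene.

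GTGGGAA and ATGGGAA were also both denser than in the genome around lin-12, adm-4 and, less so, glp-1 (0.172 and 0.286 per kb). At the others, lag-1 aside, no more than 1 of these words was. Their density in the windows of all protein-coding genes was not counted. The lin-12 window held 8 and 11 matches (0.376 and 0.518 per kb) and the adm-4 window 6 and 8 (0.447 and 0.596 per kb), against 0.133 and 0.201 per kb of the genome. The lag-2 window held 0 and 1, and the apx-1 window 1 and 5 in 23.03 kb.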
